A study of Mus musculus with 4 samples.

Results

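The genes described here are 10 mouse genes of ADP-ribosylation, the PARP genes Parp1, Parp2, Parp3, Parp8, Parp9, Parp10, Parp11, Parp12 and Parp14 together with Dtx3l. They were chosen by name, as the probes whose platform symbol is 1 of these genes. Of the 10 genes, 8 had a probe of their own among the 22180 genes measured that way. Dtx3l and Parp10 did not: the annotation gives 1 probe to both Dtx3l and Parp9, and 1 probe to both Parp10 and Plec, and neither probe names a single gene. The RNA came from B16-OVA, a line of mouse melanoma cells with a transgene for ovalbumin, and was hybridised to 4 Affymetrix gene arrays. The groups are mock transfected cells (2 arrays) and AT90ES transfected cells (2 arrays). AT90ES appears in the labels beside a treatment text that names double-stranded DNA, a 90mer, given with the cationic lipid Lipofectamine for 6 hours. All 4 arrays share the cell line and carry the same treatment text, so the content of the mock transfection is not known here, and an effect of the DNA cannot be told apart from one of the transfection. The labels do not state that the 2 replicates of a group were grown separately, so the p-values reflect the spread of these arrays alone, and that spread may be technical.

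PARP enzymes take NAD and attach its ADP-ribose unit to proteins or nucleic acids. Parp1, Parp2 and Parp3 sit in the nucleus, bind DNA breaks and help to recruit repair factors, and Parp1 and Parp2 build chains of ADP-ribose. Most other members attach single units. Parp9, Parp10, Parp11, Parp12 and Parp14 belong to the genes that interferon induces in many cell types, and Dtx3l is a ubiquitin ligase that works as a partner of Parp9. These 6 genes are called the antiviral group below and the first 3 the DNA-repair group, while Parp8, a mono-ADP-ribosyltransferase of less well known function, was kept apart from both.

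RNA of 3 antiviral PARP genes was higher in AT90ES than in mock cells, while no DNA-repair PARP passed the test. Parp14 rose 12.5-fold, Parp9 6.31-fold and Parp12 2.71-fold. In limma, with adjustment over all 22180 genes and a threshold of 0.05, 3 of the 4 antiviral genes with a probe of their own were higher and 0 lower, and over all genes 0.415% were higher. In the DNA-repair group 0 of 3 passed in limma in either direction (0% of all genes were lower), and at an unadjusted p under 0.05 Parp3 alone was higher and none was lower, against 4.5% of all genes higher and 4.59% lower. The median log2 fold change was 2.05 over the 4 antiviral genes, -0.05 over the DNA-repair group and -0.02 over all genes. These members were chosen with earlier results of the same arrays known. In RNA of whole cultures, more cells expressing a gene and more RNA per cell cannot be told apart.

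Parp14, a large mono-ADP-ribosyltransferase with macrodomains that bind ADP-ribose, had log2 levels of 5.22 and 5.59 in mock cells and of 9.01 and 9.09 in AT90ES cells. The groups lay far apart, although the mock arrays differed from each other by more (0.38) than those of any other member with its own probe. The log2 fold change was 3.64 ± 0.16 (SE, n = 2 arrays per group, 95% confidence interval 3.24 to 4.04), with a limma adjusted p = 0.00145. By size of rise it ranked 11 of the 22180 genes.

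Parp9, also with macrodomains and the partner of Dtx3l, stood at 5.16 and 5.15 in mock cells and at 7.87 and 7.76 in AT90ES cells. Its log2 fold change was 2.66 ± 0.12 (SE, 95% confidence interval 2.37 to 2.95; limma adjusted p = 0.00145), rank 18 of all genes by rise. The mock levels were low: the 95th percentile of 1105 olfactory receptor genes, taken as not expressed, was 4.85 to 5.07 over the 4 arrays. Parp9 lay above it on each array, but so close on the mock arrays that the size of its rise is uncertain, and the same holds in lesser degree for Parp14.

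The probe that Dtx3l shares with Parp9 read 5.35 and 5.40 in mock and 6.90 and 7.04 in AT90ES cells. Its mock levels were near the olfactory percentile of those arrays (5.07 and 4.93), so the size of its rise is uncertain. Both AT90ES arrays were above both mock arrays, by 1.60 ± 0.13 on the log2 scale (SE, 3.03-fold). With each of the 41345 probes tested separately, where 0.0726% of probes were higher, its limma adjusted p was 0.0982 and it did not pass. Its adjusted p ran from 0.0116 to 0.669 over the alternatives and lay under 0.05 with an intensity trend in the spread (0.0116) and with dim probes left out (0.0372). How much of this signal comes from Dtx3l and how much from Parp9 was not tested, and no level of Dtx3l alone is given.

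Parp12, a zinc-finger mono-ADP-ribosyltransferase that restricts RNA viruses, stood at 7.75 and 7.71 in mock and 9.20 and 9.13 in AT90ES cells. Parp12 was well above background in mock cells, and its groups were separated by 1.38 between the nearest arrays. The log2 fold change was 1.44 ± 0.12 (SE, 95% confidence interval 1.15 to 1.72; limma adjusted p = 0.0133). Without mock replicate 1 the adjusted p was 0.0598, without mock replicate 2 it was 0.0608, without AT90ES replicate 1 it was 0.128 and without AT90ES replicate 2 it was 0.101, so the call was lost with any 1 array left out (range over the alternatives 4.76e-07 to 0.128). Parp12 also did not pass with every probe tested separately (limma adjusted p = 0.118). Parp9 and Parp14 passed in each of these fits.

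Parp11, a mono-ADP-ribosyltransferase of the nuclear envelope, read 6.59 and 6.70 in mock and 7.01 and 7.03 in AT90ES cells. The AT90ES arrays lay above both mock arrays, as they did for 17.7% of all genes. Its log2 fold change of 0.38 had a 95% confidence interval of 0.09 to 0.67 and a limma adjusted p = 0.447. The probe shared by Parp10, a mono-ADP-ribosyltransferase, and Plec, the cytoskeletal linker plectin, read 6.17 and 6.44 in mock and 7.86 and 7.86 in AT90ES cells, a log2 fold change of 1.55 ± 0.15 (SE, 2.93-fold) with a limma adjusted p = 0.139 over all probes. Plec also had a probe of its own, which read 6.73 and 6.61 in mock and 6.99 and 6.89 in AT90ES cells, a log2 fold change of 0.27 (limma adjusted p = 0.587). How much of the shared signal comes from Parp10 and how much from Plec was not tested, and no level of Parp10 alone is given. With an intensity trend in the spread the shared probe passed (limma adjusted p = 0.0116).

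**Figure D1:**
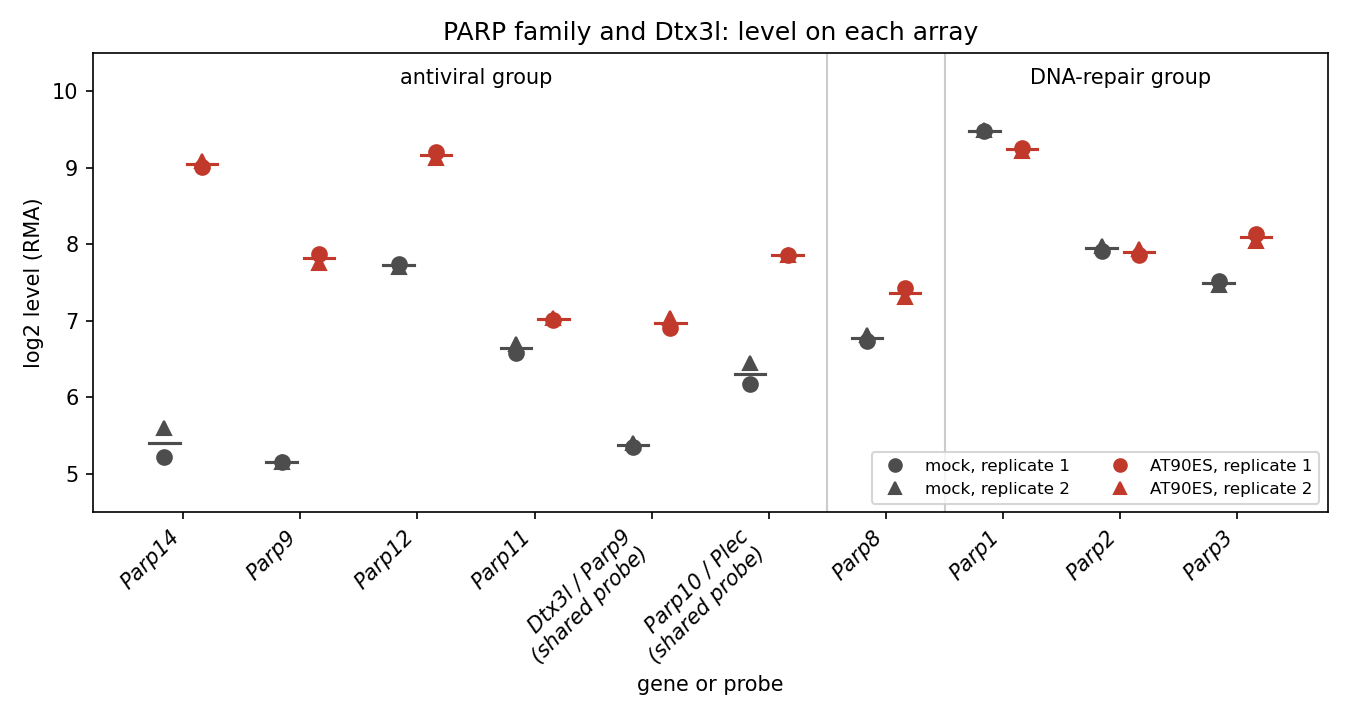
Log2 level (RMA, vertical axis) of each gene or shared probe on each of the 4 arrays; circles are replicate 1, triangles replicate 2, and short lines the mean of 2 arrays. AT90ES arrays (red) lie above mock arrays (grey) for Parp14, Parp9, Parp12, Parp11, both shared probes, Parp8 and Parp3, and below them for Parp1.

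The DNA-repair genes had log2 fold changes of either sign, none past the threshold. Parp1, the main sensor of DNA strand breaks, read 9.47 and 9.49 in mock and 9.26 and 9.22 in AT90ES cells. Both AT90ES arrays were lower, as they were for 22.1% of all genes. The log2 fold change was -0.24 ± 0.11 (SE), with a 95% confidence interval of -0.52 to 0.04 and a limma adjusted p = 0.6.

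Parp2, which acts beside Parp1 in single-strand break repair, read 7.91 and 7.98 in mock and 7.86 and 7.94 in AT90ES cells. Its groups overlapped, with a log2 fold change of -0.05, a 95% confidence interval of -0.34 to 0.24 and a limma adjusted p = 0.941. Parp3, which acts in double-strand break repair, read 7.51 and 7.47 in mock and 8.13 and 8.05 in AT90ES cells. The distance between the nearest arrays of the groups, 0.53, exceeded the 0.09 between the AT90ES arrays. The log2 fold change of Parp3 was 0.60 ± 0.12 (SE, 1.51-fold), with a 95% confidence interval of 0.31 to 0.88, an unadjusted p = 0.00253 and a limma adjusted p = 0.23. Parp3 passed with an intensity trend in the spread, at an adjusted p of 0.00606 (0.00606 to 0.723 over its alternatives).

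Parp8 read 6.73 and 6.81 in mock and 7.43 and 7.31 in AT90ES cells. Its log2 fold change of 0.60 ± 0.12 (SE, 1.51-fold) was close to that of Parp3, with a 95% confidence interval of 0.30 to 0.90 and a limma adjusted p = 0.25, and 0.0192 with an intensity trend (range over the alternatives 0.0192 to 0.732). Of the 8 members with their own probe, 6 had both AT90ES arrays above both mock arrays (17.7% of all genes did) and 1 had both below (22.1% of all genes).

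The antiviral and DNA-repair groups can be set side by side on each array. Relative to each gene's mock mean, the median of the 4 antiviral genes was 2.10 and 2.001 on the AT90ES arrays, against -0.03 and 0.03 on the mock arrays. The same median of the 3 DNA-repair genes was -0.08 and -0.0091 on the AT90ES arrays, against -0.0076 and 0.0076 on the mock arrays. The 95% confidence intervals of Parp14, Parp9 and Parp12 lay above those of all 3 repair genes, the nearest bounds being 1.15 for Parp12 and 0.88 for Parp3. The interval of Parp11 overlapped those of Parp3 and Parp2, so the groups were not cleanly divided at Parp11 and Parp3. No p is given for the difference between the groups, since their members were chosen, and an exact two-sided permutation test of 2 against 2 arrays cannot give a p below 0.333.

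**Figure D2:**
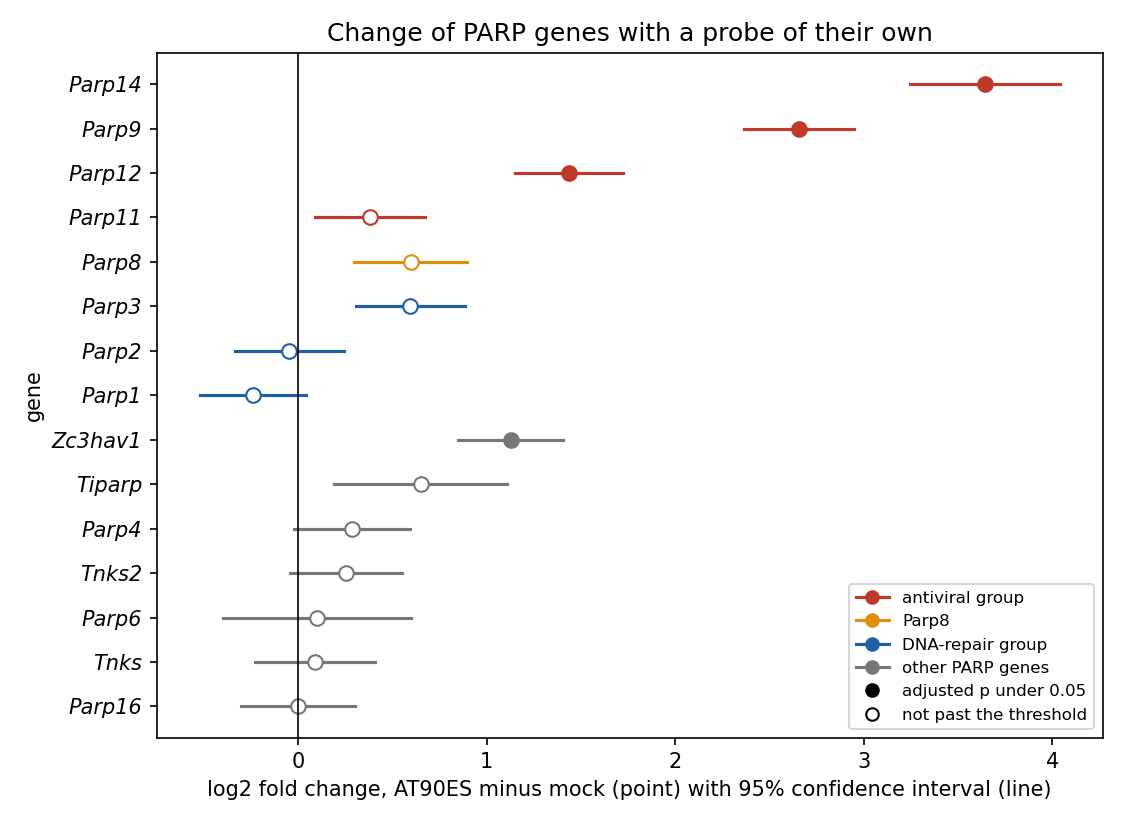
Log2 fold change (AT90ES minus mock, horizontal axis) with its 95% confidence interval from limma for 15 PARP genes with a probe of their own; filled points passed an adjusted p of 0.05. Parp14, Parp9, Parp12 and Zc3hav1 are filled, and the intervals of Parp1, Parp2, Parp4, Parp6, Parp16, Tnks and Tnks2 cross 0.

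**Figure D3:**
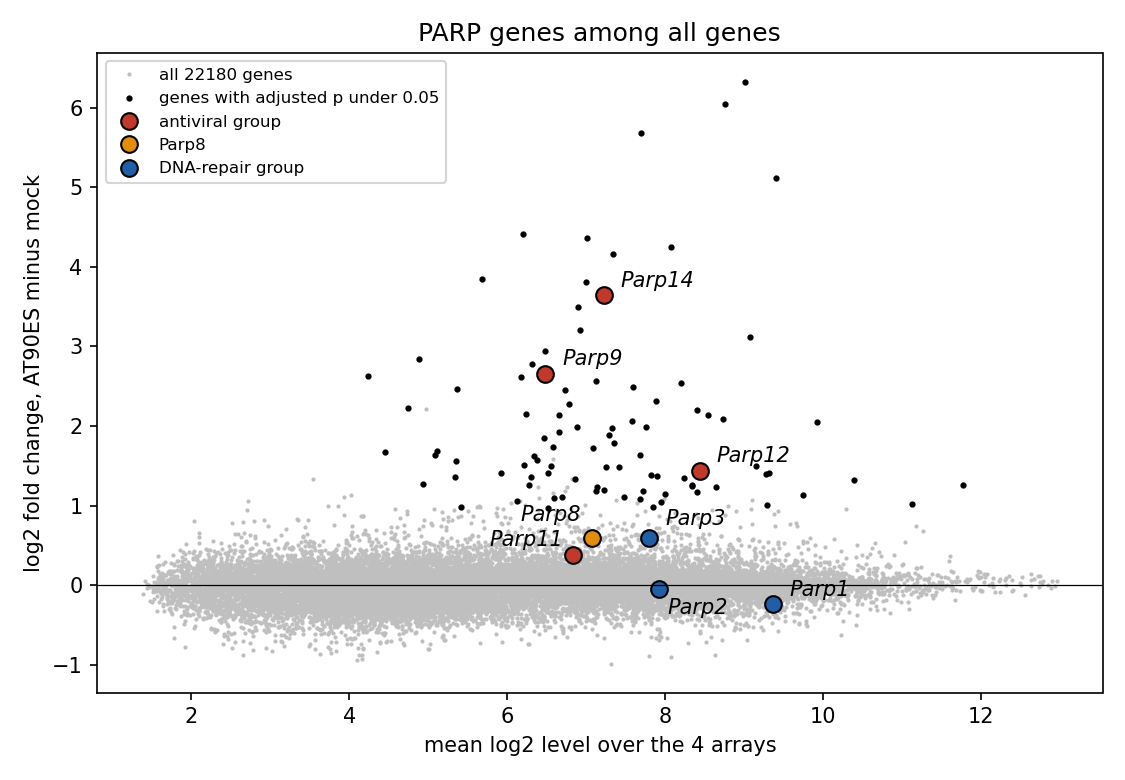
Log2 fold change (vertical axis) against mean log2 level over the 4 arrays (horizontal axis) for 22180 genes in grey, with the 92 genes past the threshold in black and 8 members named. Parp14, Parp9 and Parp12 stand among the black points, and the DNA-repair genes lie within the grey cloud, Parp3 towards its upper edge.

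Parp14, Dtx3l and Parp9 are consecutive protein-coding genes on mouse chromosome 16 in the RefSeq gene table of assembly GRCm38.p6. Hspbap1, next to Parp14, read 5.99 and 6.01 in mock and 6.42 and 6.40 in AT90ES cells, a log2 fold change of 0.41 (limma adjusted p = 0.397). Kpna1, an importin next to Parp9, stood at 0.05 (limma adjusted p = 0.942). Among the cluster and 3 measured protein-coding genes on each side of it, Parp14 and Parp9 passed and no other gene did in limma, although Hspbap1 had both AT90ES arrays above both mock arrays. Hspbap1 and Kpna1 were named for their position, outside the rule for named genes.

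**Figure D4:**
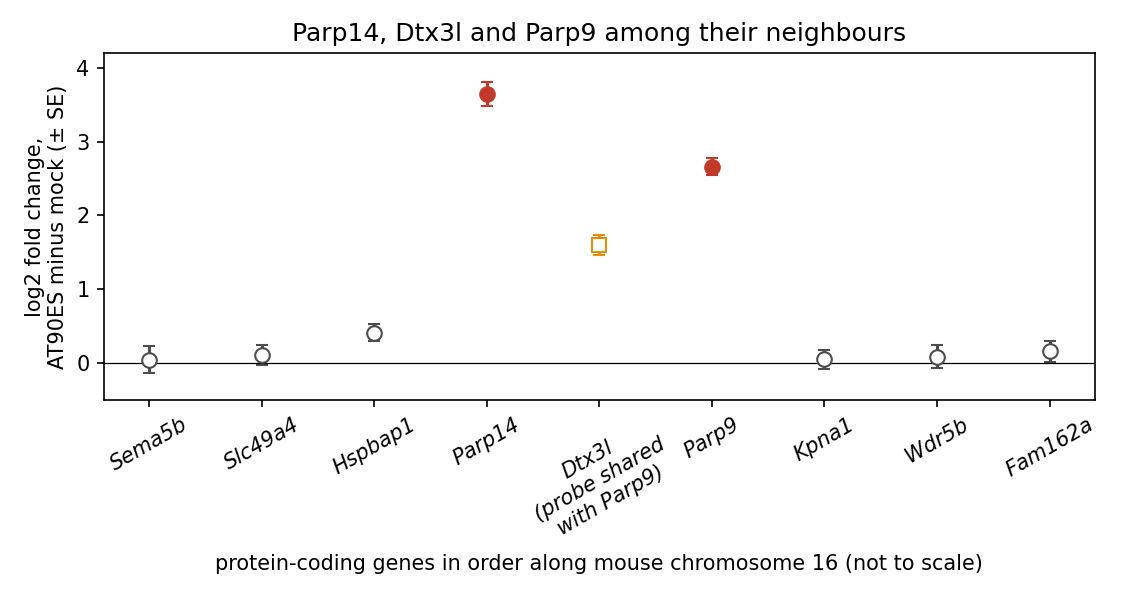
Log2 fold change (AT90ES minus mock, vertical axis, bars ± SE) of protein-coding genes in their order on mouse chromosome 16 around Parp14 and Parp9; the square is the probe shared by Dtx3l and Parp9, from the fit of every probe, and filled points passed. Parp14 at 3.64 and Parp9 at 2.66 stand above Hspbap1 at 0.41 and Kpna1 at 0.05.

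Start-site windows are shown because 3 antiviral genes rose together and interferon-induced genes often carry a response element near their start. Each window runs from 250 bases before to 50 bases after a RefSeq start (GRCm38.p6), and 7 of the 10 members had 1 or more windows, 8 in all; Parp9, Parp10 and Parp14 had none in the table. Searched on both strands were the interferon-stimulated response element (GAAA, any 2 bases, then GAAA again), its shorter core GAAACT, which can overlap it, and the STAT site TTCNNNGAA. Matches are in capitals. The windows of Dtx3l and Parp12, the first of the 2 windows of Parp11 and, from the DNA-repair group, the window of Parp1 read 5′ to 3′ on the strand of the gene.
Dtx3l, chr16:35938978-35939277, minus strand: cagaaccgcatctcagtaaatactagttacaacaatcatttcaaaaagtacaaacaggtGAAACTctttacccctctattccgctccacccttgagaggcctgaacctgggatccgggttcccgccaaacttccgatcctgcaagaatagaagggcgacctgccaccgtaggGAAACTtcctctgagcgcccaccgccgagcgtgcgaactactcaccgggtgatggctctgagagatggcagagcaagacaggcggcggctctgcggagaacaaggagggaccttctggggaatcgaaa
Parp12, chr6:39118300-39118599, minus strand: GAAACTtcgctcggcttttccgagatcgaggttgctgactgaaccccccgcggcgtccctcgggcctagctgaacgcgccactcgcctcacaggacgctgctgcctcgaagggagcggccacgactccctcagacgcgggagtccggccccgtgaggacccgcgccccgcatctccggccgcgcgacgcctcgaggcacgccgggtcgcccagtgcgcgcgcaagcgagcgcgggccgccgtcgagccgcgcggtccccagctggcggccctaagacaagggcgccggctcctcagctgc
Parp11, chr6:127446590-127446889, plus strand: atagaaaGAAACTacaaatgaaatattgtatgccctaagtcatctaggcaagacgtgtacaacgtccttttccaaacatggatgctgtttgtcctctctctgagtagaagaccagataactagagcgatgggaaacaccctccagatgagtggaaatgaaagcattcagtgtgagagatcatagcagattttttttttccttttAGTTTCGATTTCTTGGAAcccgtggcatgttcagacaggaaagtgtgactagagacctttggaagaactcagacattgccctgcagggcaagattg
Parp1, chr1:180568641-180568940, plus strand: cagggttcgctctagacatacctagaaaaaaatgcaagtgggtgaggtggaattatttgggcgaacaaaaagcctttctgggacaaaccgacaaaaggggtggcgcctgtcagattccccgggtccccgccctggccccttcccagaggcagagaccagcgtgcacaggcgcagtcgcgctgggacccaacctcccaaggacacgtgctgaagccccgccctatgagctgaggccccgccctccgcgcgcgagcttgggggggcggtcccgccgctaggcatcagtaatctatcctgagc

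The Dtx3l window held the core 2 times and Parp12 held it 1 time, in the first bases of its window. In Parp11 the stretch in capitals nearer the start holds 1 full element, read on the opposite strand, overlapping a core and the STAT site, and another core lies near the beginning of the window. The windows of Parp1, Parp2, Parp3 and Parp8, and the other window of Parp11, held none of the 3 motifs. Of all 32851 windows of the same length, 3.44% held the full element, 15.8% the core and 8.3% the STAT site. A match here is a match of letters, and whether any match bears on a change in RNA was not tested. Parp14 and Parp9, the members with the largest rises, had no window to search. Parp11, with all 3 motifs in its first window, had a log2 fold change of 0.38, and Parp12, with a core alone, had 1.44. Outside the members, Parp4 held 2 overlapping full elements, Tnks2 a core and Parp16 a STAT site, and none of these genes passed, while Zc3hav1, which did, held none of the 3 motifs.

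Among the other PARP genes, 1 of 7 measured was higher in limma (0.415% of all genes) and 0 lower (0%), with a median log2 fold change of 0.26. At an unadjusted p under 0.05 in limma, 2 were higher (4.5% of all genes) and none lower (4.59%). The gene that passed was Zc3hav1, which encodes the zinc-finger antiviral protein, a PARP without enzymatic activity that binds CpG-rich viral RNA. Zc3hav1 read 9.18 and 9.19 in mock and 10.31 and 10.31 in AT90ES cells, a rise of 1.13 ± 0.11 (SE) with a limma adjusted p = 0.0286. It lost its call with any 1 array left out, at log2 fold changes of 1.12 to 1.13. Zc3hav1 also did not pass with every probe tested separately (limma adjusted p = 0.176), and passed with an intensity trend (limma adjusted p = 1.7e-07). Tiparp, which responds to the aryl hydrocarbon receptor, read 7.55 and 7.62 in mock and 8.48 and 7.99 in AT90ES cells. Its AT90ES arrays lay 0.49 apart, and its log2 fold change of 0.65 did not pass (limma adjusted p = 0.413, and 0.0246 with an intensity trend, with a range of 0.0246 to 0.791 over its alternatives). A second, dimmer probe of Tiparp lay under the olfactory percentile on all 4 arrays. Parp4, the vault PARP, stood at 0.29, Parp6 at 0.10 and Parp16, a PARP of the endoplasmic reticulum, at -0.00054. The tankyrases Tnks and Tnks2, which act on telomere and Wnt pathway proteins, stood at 0.09 and 0.26. Tiparp, Parp4, Parp6, Parp16, Tnks and Tnks2 are named beyond the rule, to complete the family.

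Over all genes 0.415% passed as higher and 0% as lower in limma, and 4.5% were higher and 4.59% lower at an unadjusted p under 0.05. A count of 0 in the short lists below is therefore near the shares of all genes and says little about a list. Of the 4 other Deltex genes, relatives of Dtx3l, 0 passed in limma and 0 had an unadjusted p under 0.05, with Dtx3 at -0.18 and Dtx2 at -0.05. Of 8 measured genes that remove or hydrolyse ADP-ribose, 0 passed and 0 had an unadjusted p under 0.05 in limma. Named by mean level were Nudt5, an ADP-ribose pyrophosphatase, at 0.12 and Nudt9, another, at -0.22, and the list median was -0.02. Of 19 measured genes of NAD supply and use, 0 passed and 0 had an unadjusted p under 0.05 in limma, and 6 lay under the olfactory percentile on all 4 arrays. Nampt, the rate-limiting enzyme of NAD salvage, read 9.21 and 9.27 in mock and 9.50 and 9.27 in AT90ES cells. Its log2 fold change was 0.14 (limma adjusted p = 0.803), and Nmnat1, a nuclear enzyme of NAD synthesis, stood at 0.05. Of 16 measured partners of Parp1 in strand break repair, 0 passed and 0 had an unadjusted p under 0.05 in limma. The list median was -0.04, with Tdp1, which clears blocked DNA ends, at -0.05 and Pole3, a histone-fold subunit of DNA polymerase epsilon, at -0.10.

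Regulators of the interferon response had 3 of 13 measured genes higher and 0 lower in limma, with a median of 0.35. Of all genes 0.415% were higher and 0% lower. At an unadjusted p under 0.05 in limma, 7 regulators were higher and none lower, against 4.5% of all genes higher and 4.59% lower. Usp18, which removes Isg15 from proteins and restrains interferon signalling, rose by 2.78 ± 0.16 (SE), although it lay under the olfactory percentile on 1 array. Stat2, read at 5.89 and 5.90 in mock and 7.81 and 7.95 in AT90ES cells, rose by 1.98 ± 0.12. Its partner Irf9 rose by 1.26 ± 0.13. Irf9 lost its call with any 1 array left out, at log2 fold changes of 1.15 to 1.37. Irf9 also did not pass with every probe tested separately (limma adjusted p = 0.188), and passed with an intensity trend (limma adjusted p = 0.000261).

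The genes whose pattern over the 4 arrays was nearest to that of Parp14, by the Euclidean distance between log2 levels centred on each gene's mean, were Gbp3 (distance 0.26), the gene model Gm20559 (0.39), Ddx58 (0.43), 1700007K13Rik (0.44) and Trp53inp1 (0.62). Gbp3 is an interferon-inducible GTPase, Ddx58 the RNA sensor RIG-I and Trp53inp1 a p53 target. Their log2 fold changes ran from 3.12 for Trp53inp1 to 3.84 for Gbp3. Gm20559 passed in the comparison as reported (limma adjusted p = 0.00889) but not with every probe tested separately (limma adjusted p = 0.0815). Gm20559 also lost its call without AT90ES replicate 1 or 2, at log2 fold changes of 3.75 and 3.85. Gbp3 lay under the olfactory percentile on both mock arrays (3.49 and 4.02) and Gm20559 on 1 of them (4.68), so the size of their rises, and their place in this order, are uncertain. Ddx58 (5.23 and 5.06 in mock cells) and 1700007K13Rik (5.11 and 5.53) lay above the percentile of those arrays (5.07 and 4.93). Ddx58 was close to it on both mock arrays and 1700007K13Rik on mock replicate 1, so the size of these rises is uncertain too. The measure uses differences alone, so with 2 arrays a group it mostly picks genes with a rise of the same size.

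Arrays of a group correlated across genes at a Pearson's r of 0.992 (mock) and 0.993 (AT90ES), and arrays of different groups at 0.987 to 0.989, where genes are not independent replicates. All 10 pigment cell markers were measured, with mean log2 levels from 4.37 to 12.89; 9 lay above the olfactory percentile on each array and Oca2, named after its value was seen, under it on all 4. Tyrp1 and Dct, melanin enzymes, had mean log2 levels of 12.77 and 12.89. The ovalbumin transgene was not checked. Of 29 measured myeloid, lymphocyte, fibroblast and endothelial markers, 15 lay under the olfactory percentile on all 4 arrays and 0 passed in limma, with 0 higher and 3 lower at an unadjusted p under 0.05. Those 3, Tyrobp, Cd3g and Cd4, named after their values were seen, each lay under that percentile on all 4 arrays. The shares of all genes were 0.415% higher and 0% lower in limma, and 4.5% higher and 4.59% lower at an unadjusted p under 0.05. The genes named from each list by mean level stood at -0.15 (Cd68) and -0.31 (Fcer1g), -0.20 (Nkg7) and -0.03 (Cd79b), and -0.06 (Col1a1) and -0.14 (Col1a2). With the mean of all its probes Col1a2 stood at 0.13. The medians were -0.15 over 10 myeloid, -0.08 over 9 lymphocyte and 0.0088 over 10 fibroblast and endothelial markers, each list holding members of either sign. Of 8 measured reference genes 0 passed in limma, also at an unadjusted p under 0.05, and Gapdh stood at -0.02 and Ywhaz at 0.08.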

How the data were processed

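The authors deposited log2 levels for each probe on each array; RMA is named in the submitters' processing notes, and its software, version and settings are not given in the sources used here. RMA corrects background, equalises the distributions of arrays and summarises each probe set, so a fold change stands relative to the rest of the array. Per the labels, 300 ng of total RNA went into each array. Groups and replicate numbers come from the labels. Probes were named from the platform annotation: of 41345, 23521 had 1 symbol, 1814 several and 16010 none, and probes with several named no gene. Where a gene had more than 1 probe (1082 genes), the brightest stood for it. The groups were compared by limma 3.58.1 (R 4.3.3), lmFit and eBayes, two-sided, without covariates, with Benjamini-Hochberg adjustment over 22180 genes; 2 residual degrees of freedom were joined by 3.70 from all genes. Shared probes were read from the same fit over every probe. For arrays, their number limits the precision. The steps were tested on simulated data.

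The members and lists were chosen with earlier results of these data known. Named genes are all members, from each list up to 4 past the threshold or the 2 brightest, and the 5 most like the member with the largest rise. Listed symbols without a probe of their own were not analysed here. Alternatives were the replicate number as a block, each array left out, an intensity trend, dim genes left out, 2 centrings and 2 treatments of probes. Promoter windows are from RefSeq (GRCm38.p6); the order of genes on chromosome 16 is that of the RefSeq gene table of the same assembly, and no other coordinates were used.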

Additional observations from a re-analysis of the deposited data

How the results depend on the processing

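For the members, 96 of 106 comparisons of a log2 fold change with its value under an alternative kept their direction and side of the threshold, 5 lost the call (all Parp12), 5 gained it (Parp3 and Parp8 with the intensity trend, the Dtx3l and Parp9 probe 2 times, the Parp10 and Plec probe 1 time) and 0 reversed. For the other named genes, 381 of 395 comparisons kept their side of the threshold, 13 lost the call and 1 gained it (Tiparp with the intensity trend). Of the 395, 19 changed sign, in 11 genes that passed neither before nor after, none beyond a size of 0.14. The antiviral genes called higher numbered 3, and 2 without any 1 array and with every probe tested separately. Of the DNA-repair genes 1 was called with the intensity trend. The DNA-repair median was -0.11 with reference-gene centring, since that centring moves every log2 fold change by -0.07, and centring on the median moves it by 0.03. Over all genes, those higher numbered 92, and 32 to 47 with 1 array left out, where the remaining array of that group borrows its spread from the other group, 431 with the intensity trend (162 lower), 142 with dim genes left out (3 lower), 172 with arrays centred on the median (4 lower) and 30 with every probe tested separately. Genes lower numbered 0 in the comparison as reported, against 1017 at an unadjusted p under 0.05 in limma.

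Nothing says that same-numbered arrays are paired, and their deviations correlated at -0.22. With the replicate number as a block 85 genes were higher and 0 lower, and 3 antiviral and 0 repair members passed; in this balanced design a block cannot move a log2 fold change, so the medians of 2.05 and -0.05 are fixed. With the crossed pairing as a block, chosen after the data were seen, 59 genes were higher and 0 lower. Levels near background, as those of Parp9, Parp14 and the probe shared by Dtx3l and Parp9 in mock cells, limit how well the size of a rise is known.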
